A study of Mus musculus with 10 samples.

Results

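The mouse genome carries many copies of the gene for 5S ribosomal RNA, the short RNA of the large ribosomal subunit. GENCODE M21 lists 180 of them under symbols that start with n-R5s. Of these, 58 held 20 or more reads summed over the 10 libraries of the study, out of 55471 genes counted in all, and they are the copies described here. Another 71 copies held 1 to 19 reads and 51 held none. The cells were primary microglia of WT mice, kept in culture medium with serum. The 5 libraries labelled knockdown came from cells given a gapmer, an antisense oligonucleotide that directs cleavage of its target RNA, against the long noncoding RNA 3222401L13Rik. The 5 control libraries came from cells given a control gapmer. The labels give no age or strain of the mice. They also leave unsaid whether the libraries of 1 group are separate cultures or animals, and p-values measure the spread between these libraries, which may be technical.

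5S rRNA is transcribed by RNA polymerase III from a promoter that lies inside the gene. TFIIIA binds this internal region, made of an A box, an intermediate element and a C box, and brings in TFIIIC and TFIIIB. The finished RNA is bound by the ribosomal proteins Rpl5 and Rpl11 and enters the large subunit as a ribonucleoprotein particle. Many near-identical genes sit in a tandem array, and many diverged copies are scattered over the genome, a large part of them thought to be pseudogenes. A read from one copy can match others, so counts at a single copy are uncertain. The sources used here do not give how the authors placed and counted reads that match several copies.

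Copies are compared here with the commonest copy sequence, 119 bases long, by global alignment. Positions are counted from its 5′ end, on which the A box takes bases 50 to 64, the intermediate element 67 to 72 and the C box 80 to 97, as known from the frog gene. The sequences of n-R5s62, with the second highest read count, and n-R5s207, the copy called in the test, are shown. Both match under 80% of that sequence. The 2 sequences are from the GENCODE M21 transcripts (GRCm38), 5′ to 3′, and capitals mark bases that differ from the commonest sequence. Bases missing from a copy are not marked.
n-R5s62, chr12:82150468-82150563, plus strand: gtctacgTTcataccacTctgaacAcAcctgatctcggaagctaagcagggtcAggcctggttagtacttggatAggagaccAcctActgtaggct
n-R5s207, chr2:164157404-164157521, minus strand: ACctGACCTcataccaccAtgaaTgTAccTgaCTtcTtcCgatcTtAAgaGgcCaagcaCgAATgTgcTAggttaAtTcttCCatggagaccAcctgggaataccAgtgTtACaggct

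The 10 libraries held 5593627 to 6636082 reads each in the knockdown group and 4321316 to 5639040 reads each in the control group (exact two-sided permutation test, p = 0.0159). Microglial markers were present in every library, with a summed level of 670 to 721 RPKM in knockdown libraries and 640 to 664 RPKM in control libraries. Astrocyte markers summed to 23.3 to 29.2 RPKM in knockdown libraries and 25.5 to 28.7 RPKM in control libraries. All 4 neuronal markers had reads and summed to 1.48 to 2.70 RPKM in knockdown libraries, against 3.04 to 5.03 RPKM in control libraries. Markers of endothelium summed to 2.06 to 2.53 RPKM in knockdown and 2.86 to 4.57 RPKM in control libraries, and those of fibroblasts to 1.39 to 2.85 RPKM in knockdown and 3.45 to 4.99 RPKM in control libraries. The groups overlapped for the oligodendrocyte lineage, at 5.64 to 7.29 RPKM in knockdown and 6.65 to 8.32 RPKM in control libraries. They also overlapped for erythroid markers, at 0 to 0.764 RPKM in knockdown and 0 to 0.904 RPKM in control libraries. The targeted RNA, 3222401L13Rik, had 22, 38, 24, 33 and 29 reads in the libraries labelled knockdown and 30, 29, 28, 33 and 34 reads in control libraries, with overlapping groups (log2 fold change -0.17, SE 0.23, adjusted p = 0.541, edgeR). The labels of the knockdown libraries are therefore not backed by a lower count of the target. Reads on 1135 olfactory receptor genes, which microglia are not known to use, served as a measure of diffuse background. Their density was 0.257 ± 0.0674 reads per kb of exon for every 1000000 reads in knockdown libraries and 0.599 ± 0.147 in control libraries (SD, n = 5 each). The difference had p = 0.00794 by an exact two-sided permutation over libraries, which is the lowest p that 5 against 5 can give. The part of this background in the low sums of neuronal, endothelial and fibroblast markers was not tested.

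Few copies carried most of the 5S reads. The 58 copies held 78388 reads in all, with a median of 149 reads per copy. n-R5s56 alone had 34299 reads, n-R5s62 had 15891 and n-R5s115 had 11980, and these 3 copies made up 79.3% of the total. The next copies were n-R5s161 with 1773 reads, n-R5s151 with 1603 and n-R5s205 with 1357, followed by n-R5s162 with 981 and n-R5s109 with 973. In all, 6 copies had 1000 or more reads, 27 had 100 to under 1000 and 25 had 20 to 99. At the lower limit the copies just inside were n-R5s80 with 23 reads and n-R5s21 and n-R5s24 with 20 each. Just outside were n-R5s217 and n-R5s47 with 19 reads, n-R5s46 and n-R5s98 with 18, n-R5s169 and n-R5s95 with 16, and n-R5s127, n-R5s198, n-R5s30 and n-R5s48 with 15. The 122 copies under the limit held 571 reads together.

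Copies whose sequence is shared by another copy held no reads at all. The commonest sequence belongs to 25 copies, and all 25 stood at 0 in every library. In total 36 copies share their sequence with another, all 36 at 0. Among the 144 copies with a sequence of their own, 58 reached 20 reads and 15 stood at 0. Whether reads of identical copies were left out before counting was not tested, and the level of the commonest 5S sequence cannot be read from these counts.

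The tandem array holds all 36 copies with a shared sequence, so it does not show this pattern a second time. It runs on the minus strand over chr8:123538786-123622046 (GRCm38) with 41 annotated copies at a median spacing of 1703 bases. Its 13029 reads lay on 4 copies that each have a sequence of their own, and 37 copies had none. n-R5s115 departs from the commonest sequence by 2 substitutions and took 11980 of these reads. n-R5s109, with 3 substitutions, had 973 reads. n-R5s136, with 1, had 61, and n-R5s127 had 15. The other copy with its own sequence, n-R5s102, has no stretch of 30 bases that is absent from every other copy, and it had 0 reads.

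Fewer of the copies that match little of the commonest sequence reached 20 reads, yet the highest counts lay among them. The percent matched is taken over all 119 bases, so bases missing from a short copy count as unmatched. Of 9 copies with a sequence of their own that matched at least 95% of the commonest sequence, 7 reached 20 reads, with a median of 92 over the 9. Of 13 copies from 90 to under 95%, 10 did, with a median of 146 reads. Of 26 copies from 80 to under 90%, 18 did, with a median of 72. Of 96 copies under 80%, 23 did, with a median of 9. The copies with the highest and second highest count are both in this last class. n-R5s56 matched 77.3% of the commonest sequence, with 13 substitutions and 14 bases missing. Most of its differences lie at the 3′ end from base 91 onward, beyond a run of 46 identical bases. n-R5s62 matched 73.1%, is 96 bases long and shares no identical run over 25 bases. It has 9 substitutions and 23 bases missing, so much of its distance is shortening. n-R5s193 shares an identical run of 90 bases with the commonest sequence, and 19 of its 80 stretches of 30 bases occur in no other copy. It held 218 reads.

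**Figure D1:**
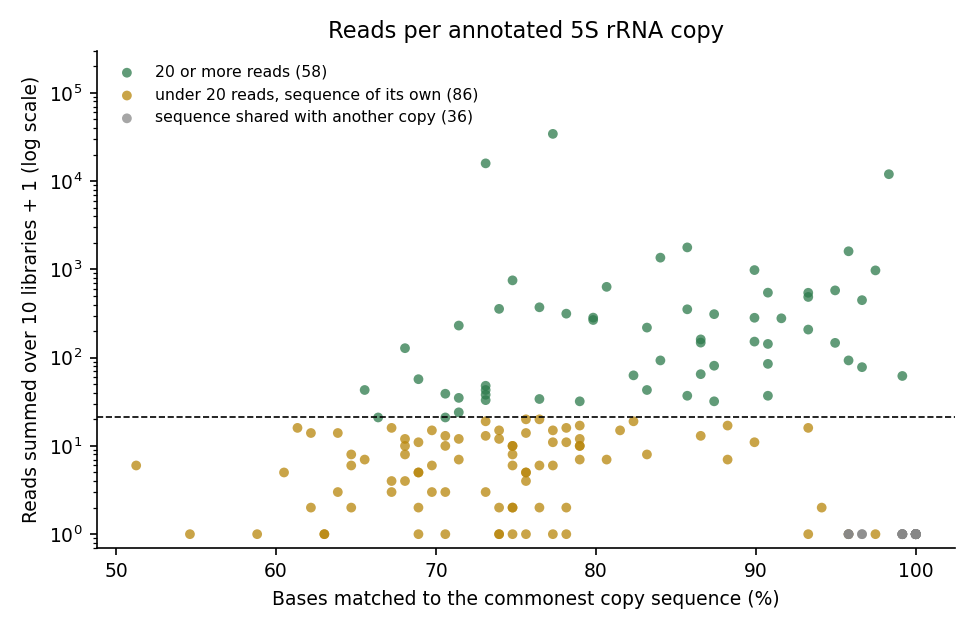
Reads summed over the 10 libraries plus 1 (vertical, log scale) for each of the 180 annotated copies, against the percent of the commonest copy sequence that the copy matches (horizontal). The dashed line marks 20 reads. The 36 copies with a shared sequence lie at 0 reads, while the highest points, n-R5s56 and n-R5s62, match under 80%.

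Copies with an intact internal promoter divided by whether their sequence was their own. A base missing from a copy counts here as a mismatch. In copies with 20 or more reads, the A box was free of mismatch in 15 of 58, the intermediate element in 41 and the C box in 9. All 3 elements were intact in 4 of these copies, n-R5s109, n-R5s211, n-R5s194 and n-R5s136, which held 1668 reads together. Among the 122 other copies, 29 had all 3 elements intact, and each of the 29 stood at 0 reads. Of those 29, 28 share their sequence with another copy. Of the 5 intact copies with a sequence of their own, 4 reached 20 reads and n-R5s185 had 0. n-R5s56 kept the A box and the intermediate element and had 6 mismatches in the C box, which spans 18 bases. n-R5s62 had 1 mismatch in the A box and 4 in the C box. These matches describe the letters of the copies. They do not show where TFIIIA binds.

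By position, 27 of the 58 copies lie in no other annotated gene, among them n-R5s56, n-R5s62 and n-R5s162. Another 28 lie in introns, 10 on the same strand as the host gene and 18 on the opposite strand. The remaining 3 overlap an exon: n-R5s193 in Gm47301 on the same strand, n-R5s195 in Gm42781 and n-R5s29 in Eif2ak2, both on the opposite strand. Counts of host genes are given for copies with many reads in introns, all on the opposite strand. Reads in the host introns were not examined, and hosts of copies in same-strand introns are not among them. n-R5s115 and n-R5s109 lie in introns of Gm20388, which had 0 reads in every library, as did Gm47301. n-R5s161 lies in an intron of Zc3hc1, at 15.3 ± 2.17 CPM in knockdown and 17.2 ± 1.80 CPM in control libraries. n-R5s205 lies in an intron of Stard9, which with TMM scaling was higher in knockdown libraries at 214 ± 11.6 CPM against 192.9 ± 12.7 CPM in control libraries (SD, n = 5 each; log2 fold change 0.15, SE 0.06, adjusted p = 0.0272, edgeR). n-R5s151 lies in an intron of Npas1, which with TMM scaling was lower at 2.51 ± 1.24 CPM in knockdown and 4.16 ± 0.576 CPM in control libraries (SD, n = 5 each; log2 fold change -0.73, SE 0.30, adjusted p = 0.0332, edgeR). None of the 3 copies in these introns was called.

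The question asked of the design was whether 5S rRNA copies differ between 3222401L13Rik gapmer and control gapmer. In sum they did not separate the groups. The 58 copies together took 0.125 ± 0.0386% of reads in knockdown libraries and 0.151 ± 0.0491% in control libraries. On the TMM scale, reads of a gene in every 1000000 of the library (CPM) after scaling for composition, the summed level was 1269, 1920, 1620, 715 and 1299 CPM in knockdown libraries 1 to 5, and 1433, 1010, 1840, 882 and 2099 CPM in control libraries 1 to 5. The groups overlap over almost their whole range, and the highest and lowest library differ 2.94-fold. The means were 1365 ± 450 CPM in knockdown and 1453 ± 522 CPM in control libraries (SD, n = 5 each; log2 ratio -0.09). Within lane 7 the means were 1603 CPM in knockdown and 1428 CPM in control libraries (n = 3 each), and within lane 8 they were 1007 CPM in knockdown and 1491 CPM in control libraries (n = 2 each), so the difference has opposite signs in the 2 lanes. In bulk RNA, fewer cells and less RNA per cell cannot be told apart.

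The 3 copies with most reads make up 79.3% of the summed reads, so their order of libraries largely sets that of the sum. n-R5s62 and n-R5s115 placed knockdown library 1 above knockdown library 5, the reverse of the sum. n-R5s56 stood at 559, 839, 716, 314 and 574 CPM in knockdown libraries and at 647, 441, 800, 379 and 894 CPM in control libraries. n-R5s62 stood at 256, 398, 340, 136 and 248 CPM in knockdown libraries and at 290, 203, 378, 173 and 432 CPM in control libraries. Both copies were lowest in knockdown library 4 and highest in control library 5. n-R5s115 had 200, 302, 251.7, 108.8 and 192 CPM in knockdown libraries and 215, 149, 294, 133 and 307 CPM in control libraries. The groups overlapped for each of these 3 copies, with fold changes of -0.07 (SE 0.32), -0.10 (SE 0.35) and -0.06 (SE 0.33) on the log2 scale, in that order. For n-R5s56 the 95% interval ran from -0.81 to 0.66, so a change of about that size in either direction is not excluded by these data.

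The copies of middling level followed a like order, with 2 exceptions in which library was highest or lowest. n-R5s161 had 31.2, 42.6, 36.3, 15.7 and 27.1 CPM in knockdown libraries and 35.7, 23.3, 41.6, 19.2 and 46.4 CPM in control libraries. n-R5s151 had 21.7, 37.7, 30.4, 16.8 and 25.9 CPM in knockdown libraries and 30.2, 23.1, 39.9, 18.2 and 44.5 CPM in control libraries. In both, control library 5 was highest and knockdown library 4 lowest. n-R5s205 had 23.6, 32.4, 30.2, 12.7 and 19.4 CPM in knockdown libraries and 27.0, 16.8, 32.0, 15.7 and 34.1 CPM in control libraries. n-R5s162 had 15.7, 26.9, 24.0, 6.90 and 16.2 CPM in knockdown libraries and 16.8, 11.0, 22.6, 11.1 and 24.6 CPM in control libraries. For n-R5s162 the highest library was knockdown 2. n-R5s109 had 16.8, 24.3, 19.9, 11.1 and 17.0 CPM in knockdown libraries and 17.7, 12.5, 21.5, 10.1 and 23.8 CPM in control libraries, and was highest in knockdown library 2 and lowest in control library 4. None of the 5 separated the groups.

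**Figure D2:**
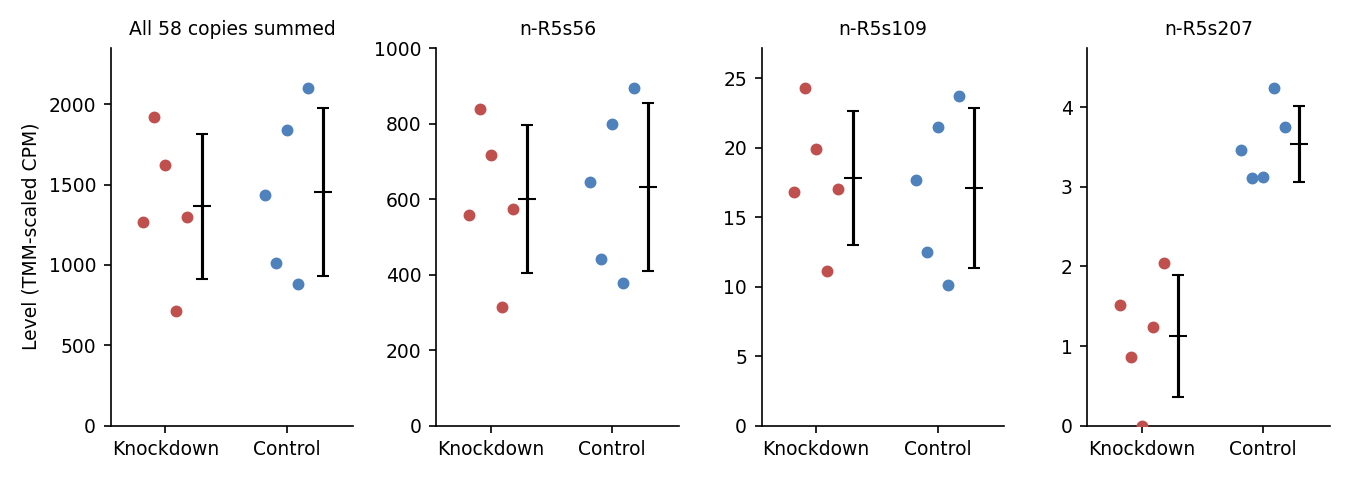
TMM-scaled CPM per library for the 58 copies summed, n-R5s56, n-R5s109 and n-R5s207, with knockdown libraries on the left of each panel and control libraries on the right; bars give mean ± SD (n = 5 each). The groups overlap in the first 3 panels, and for n-R5s207 the knockdown points all lie below the control points.

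The make-up of the 5S reads was far steadier than their amount. n-R5s56 took 42.6 to 45.2% of the reads of the 58 copies in every library, n-R5s62 took 19.0 to 21.0% and n-R5s115 took 14.6 to 16.0%. The ratio of n-R5s62 to n-R5s56 was 0.455 ± 0.0214 in knockdown and 0.464 ± 0.0136 in control libraries (SD, n = 5 each), over a 2.84-fold range of n-R5s56 itself. Spread beyond counting error was measured as chi-square per degree of freedom over the 10 libraries, where 1 is counting error alone. Within the 5S reads its median over the 33 tested copies was 1.09, and 28 of them were under 2. Within all reads of the library the median was 5.29, and 1 of 33 was under 2. The tested copies above 2 within the 5S reads were n-R5s62 at 2.02, n-R5s156 at 3.34, n-R5s25 at 7.25, n-R5s207 at 7.29 and n-R5s167 at 22.1.

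Those last copies depart in different libraries. n-R5s167 stood at 26.8 CPM (150 reads) in control library 5 and at 7.54 CPM or less in the other control libraries. n-R5s25, on chromosome 18, took 0.305 to 0.590% of the 5S reads in the lane 7 libraries and 0.668 to 1.09% in the lane 8 libraries. Its share thus split by lane, over both groups. n-R5s207 took 0 to 0.173% of the 5S reads in knockdown and 0.170 to 0.480% in control libraries. In share its groups thus overlapped slightly, though in CPM they did not. This copy entered the test through its control level, as described below.

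**Figure D3:**
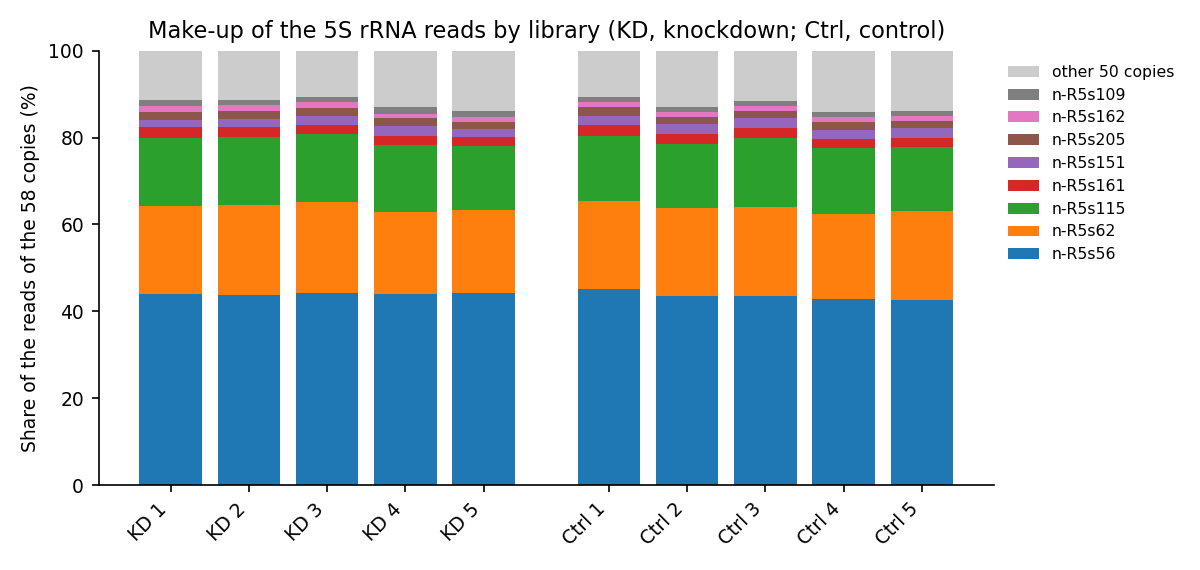
Share of the reads of the 58 copies taken by the 8 copies with most reads and by the other 50, in percent, for each library, with knockdown libraries on the left. The lowest block, n-R5s56, holds 42.6 to 45.2% in every library.

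Other short structural RNAs varied over the libraries in a way like the 5S copies, and most of the longer ones varied less. Rny3, a Y RNA of 102 bases bound by the Ro protein, averaged 266 ± 92.4 CPM in knockdown and 277 ± 98.4 CPM in control libraries (SD, n = 5 each). Its highest and lowest libraries were those of the 5S copies, with a 2.95-fold range. The ratio of the summed 5S copies to Rny3 was 5.17 ± 0.161 in knockdown and 5.24 ± 0.194 in control libraries, from 5.03 to 5.45 over all 10. The vault RNA Vaultrc5 (143 bases) spanned 2.47-fold and n-R5-8s1, the other small rRNA of the large subunit (148 bases), spanned 2.46-fold. Other short RNAs followed the 5S copies less closely than Rny3. The ratio of the summed 5S copies spanned 1.64-fold to Vaultrc5 and 1.49-fold to n-R5-8s1, against 1.08-fold to Rny3. To Rny1 it was 36.4 ± 2.54 in knockdown and 42.2 ± 1.89 in control libraries (SD, n = 5 each). Rpph1, the RNA of RNase P (319 bases), spanned 1.58-fold and Rn7sk, which holds back transcription elongation (331 bases), 1.37-fold. Rny1 (112 bases) spanned 2.76-fold, but Rn7s2, at 300 bases and 184 reads, spanned 3.72-fold, so length did not order every RNA of this list. What sets this library order was not tested.

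**Figure D4:**
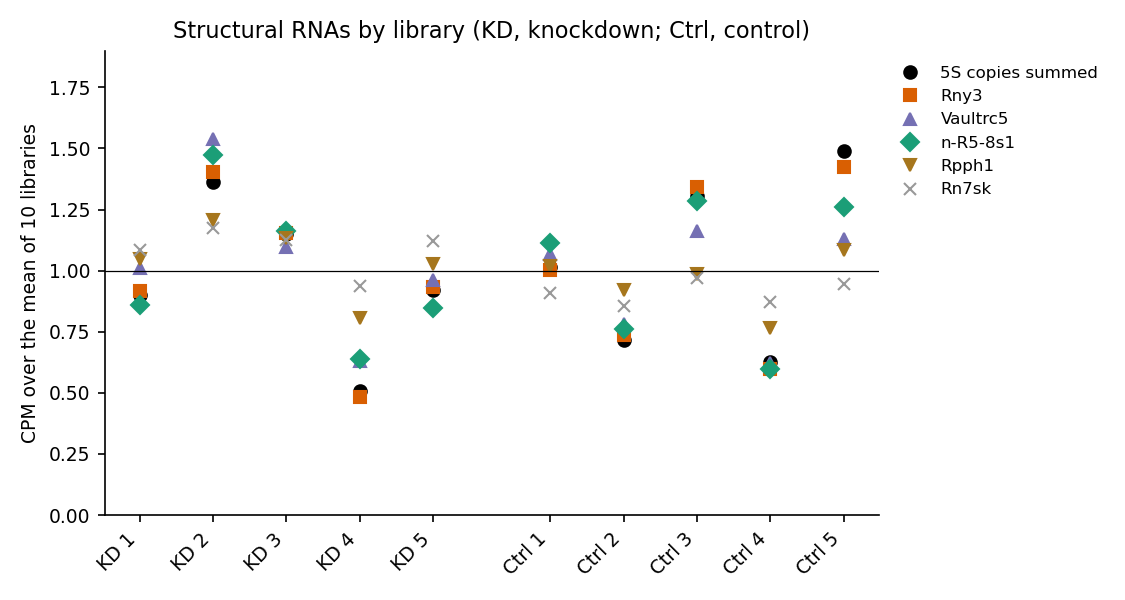
CPM over the mean of the 10 libraries (vertical) for the summed 5S copies and 5 other structural RNAs in each library, with knockdown libraries on the left. The 5S, Rny3, Vaultrc5 and n-R5-8s1 points are low together in knockdown library 4 and control library 4, while Rn7sk has the smallest range of those drawn.

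Tests across all genes called 1 of the 33 tested copies. edgeR's quasi-likelihood test was applied to 19263 genes that passed a filter near 1.78 CPM in 5 libraries, with adjusted p under 0.05 as the threshold. Of the 58 copies, 33 passed that filter and 25 had too few reads. None was higher in knockdown libraries, 1 was lower and 32 were not called, and the counts were the same at an unadjusted p under 0.05 and by DESeq2. Over all tested genes 22.9% were called higher and 31.3% lower, together 54.3%. The median log2 fold change was -0.11 over the 33 copies and -0.10 over all tested genes, with 26 of the 33 negative. Among the 32 copies not called, fold changes ran from -0.77 (n-R5s167) to 0.17 (n-R5s156), with standard errors of 0.20 to 0.77 and a median of 0.31. By p-value n-R5s193 came next, at -0.54 (SE 0.28, adjusted p = 0.0864, edgeR), at 3.22 ± 0.692 CPM in knockdown and 4.70 ± 1.61 CPM in control libraries (SD, n = 5 each). It passed the threshold under upper-quartile scaling, library totals, scaling on genes with little background and without control library 4.

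The 1 copy called was n-R5s207, which had 8, 5, 0, 7 and 12 reads in knockdown libraries and 19, 15, 17, 23 and 21 reads in control libraries. Its level was 1.13 ± 0.765 CPM in knockdown and 3.54 ± 0.471 CPM in control libraries (SD, n = 5 each; log2 fold change -1.64, SE 0.38, 95% interval -2.39 to -0.89, adjusted p = 2.99e-04, edgeR). The groups did not overlap, as in 26.8% of all tested genes (14.2% in the lower direction). The copy passed the filter in 5 control libraries and in 1 knockdown library, so it entered the test through its control level, and a copy that enters this way has to differ in that direction. Among the tested copies it has the fewest reads, 127. It is also the furthest of them from the commonest sequence, at 68.1% matched with no identical run over 12 bases, 6 mismatches in the A box, 2 in the intermediate element and 4 in the C box. It lies in no other annotated gene. At the olfactory density, 2.13% of its reads would be background. That density is lower in knockdown libraries too, and its part in the result was not tested. Within lane 8 alone n-R5s207 was not called (adjusted p = 0.142, edgeR), and it was not tested under a filter of 5 CPM.

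**Figure D5:**
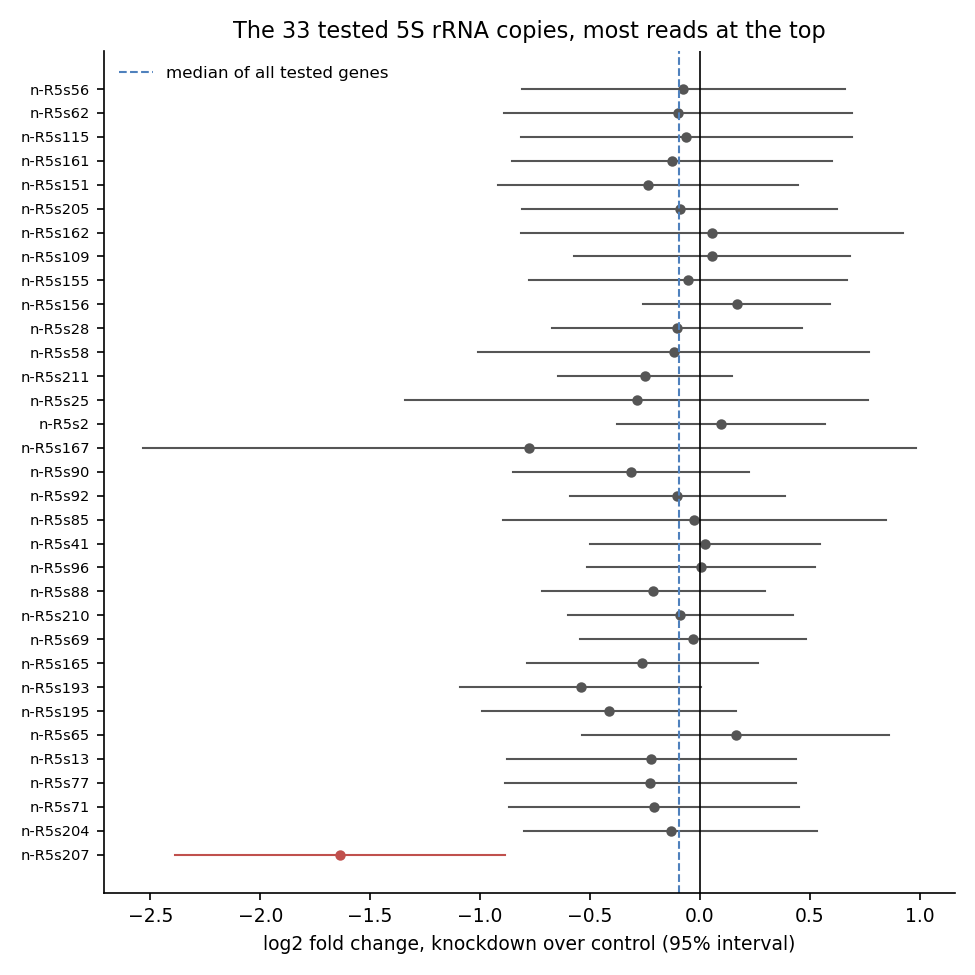
log2 fold change, knockdown over control, with its 95% interval (edgeR), for each of the 33 tested copies, ordered by reads. The interval of n-R5s207, at the bottom, ends at -0.89, while those of the 32 copies not called reach 0 or cross it; the dashed line is the median of all tested genes, -0.10.

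The copies were also grouped by closeness to the commonest sequence, leaving out the 3 with most reads. The 4 copies that matched under 70% summed to 2.86 ± 1.47 CPM in knockdown and 6.15 ± 1.45 CPM in control libraries (SD, n = 5 each; log2 ratio -1.11). The sums ran from 0.844 to 4.42 CPM in knockdown and from 4.19 to 8.11 CPM in control libraries, so the groups overlapped. These 4 copies include n-R5s207, which holds 127 of their 245 reads. The other 3 were n-R5s73 at 0.643 CPM in knockdown and 1.45 CPM in control libraries, n-R5s61 at 0.733 CPM in knockdown and 0.800 CPM in control libraries, and n-R5s21 at 0.351 CPM in knockdown and 0.364 CPM in control libraries. The 19 copies from 70 to under 80%, less n-R5s56 and n-R5s62, summed to 48.4 ± 13.8 CPM in knockdown and 56.2 ± 25.1 CPM in control libraries. For the 18 copies from 80 to under 90% the sums were 119 ± 36.6 CPM in knockdown and 125 ± 43.8 CPM in control libraries. For the 17 copies from 90% upward, less n-R5s115, they were 108 ± 33.7 CPM in knockdown and 119 ± 44.2 CPM in control libraries. The last 3 log2 ratios were -0.22, -0.07 and -0.14.

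Background is computed here from exon length, so by arithmetic its share is larger in copies of like length with fewer reads. The 25 untested copies, at 20 to 92 reads each, summed to 19.8 ± 2.84 CPM in knockdown and 24.0 ± 6.73 CPM in control libraries, and the groups overlapped for each of the 25. At the olfactory density, background would make up 2.96 to 13.4% of the reads of each of them. The 122 copies under 20 reads summed to 51.6 ± 8.93 reads per library in the knockdown group and 62.6 ± 9.99 in the control group (SD, n = 5 each). The olfactory density would give 22.1 and 42.2 reads per library over the same exons, in that order of groups. These exons include the 36 copies with a shared sequence, all at 0 reads, which add to the expected reads and not to those observed. For the 58 copies it would give 8.4 to 13.7 reads per knockdown library and 16.2 to 23.8 per control library, against 4041 to 11754 reads observed.

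The protein genes that make and bind 5S rRNA were higher in part with TMM scaling, and fewer were called under upper-quartile scaling, library totals and scaling on genes with little background. Of the 19 such genes called over 3 lists, 12 had a positive fold change under all 4 of these scalings and 7 turned sign, among those named below Gtf3c1, Bdp1 and Polr3c. The shares over all tested genes were 22.9% higher and 31.3% lower. Of 11 genes for TFIIIA, TFIIIB and TFIIIC, all tested, 4 were higher and 0 lower in knockdown libraries, with a median log2 fold change of 0.14. The 4 were the TFIIIC subunits Gtf3c6 (0.37, SE 0.08), Gtf3c3 (0.37, SE 0.09) and Gtf3c1 (0.21, SE 0.06) and the TFIIIB subunit Bdp1 (0.22, SE 0.06). Gtf3a, which codes for TFIIIA itself, was at 7.95 ± 1.76 CPM in knockdown and 7.24 ± 0.601 CPM in control libraries (adjusted p = 0.572, edgeR, n = 5 each). Of 19 genes for RNA polymerase III subunits and its repressor Maf1, 17 were tested, 7 were higher and 0 lower, with a median of 0.18. They include Polr2e (0.26, SE 0.09), shared with the other nuclear polymerases, Polr3d (0.26, SE 0.09), Polr3k (0.30, SE 0.12) and Polr3c (0.18, SE 0.07).

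All 13 genes found for the 5S particle, its assembly and its binding or decay were tested. Of these, 8 were higher and 0 lower (22.9% and 31.3% over all tested genes), with a median of 0.23. They include Trove2 (0.38, SE 0.07), which codes for the Ro protein, Ssb (0.32, SE 0.06), the La protein that holds new polymerase III transcripts, Mdm2 (0.25, SE 0.06), the p53 ligase that the 5S particle binds, and the exonuclease gene Rexo1 (0.29, SE 0.08). Rpl11 was at 4.41 ± 1.01 CPM in knockdown and 6.21 ± 1.45 CPM in control libraries (log2 fold change -0.49, adjusted p = 0.0732, edgeR, n = 5 each). At the olfactory density, background would make up a median of 6.73%, 5.93% and 6.07% of reads over the genes of the 3 lists. Under library totals the higher calls were 0, 0 and 2 in the 3 lists, and with scaling on genes with little background they were 0 in each, with 1, 1 and 3 lower. Of 10 other structural RNAs tested, 4 were higher, against 22.9% of all tested genes: mt-Rnr1 (0.30, SE 0.06), mt-Rnr2 (0.30, SE 0.06), Rn7sk (0.26, SE 0.06) and Rn7s1 (0.39, SE 0.15). With the little-background scaling 0 of these 10 were called. The median of all genes moved to -0.24 under upper-quartile scaling, -0.30 under library totals and -0.34 under that last scaling, and the 33 copies moved with it to -0.25, -0.31 and -0.35. Of all calls, 42.3% were higher in knockdown libraries with TMM, against 19.0%, 8.78% and 3.51% under these 3 scalings.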

How the data were processed

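The deposited files hold raw counts: whole numbers of reads for each gene, 1 library to a file. Per the labels' protocols the libraries were made from total RNA with a strand-marking, random-primed kit. Per the submitters' processing notes, bcl2fastq and the GRCm38 (mm10) build were used. The sources used here do not give the aligner, counting program, strand setting, annotation or treatment of multiply matching reads. Reads from a copy and a gene on the other strand could therefore not be told apart. Names, positions and sequences came from GENCODE M21, to which 55230 of 55471 genes matched; 241 unmatched genes held 0.0107% of reads, and 92 spike-in entries (at most 2 reads in a library) were left out.

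Genes were filtered with filterByExpr (minimum count 10), scaled with TMM and tested with edgeR 4.0.16 (robust quasi-likelihood, R 4.3.3), with Benjamini-Hochberg adjustment over all tested genes. DESeq2 1.42.0, other scalings, filters, lanes and left-out libraries were alternatives. Copies were aligned to the commonest sequence with Biopython 1.88. RPKM of marker genes and background from olfactory receptor density times exon length were computed from the counts. The fit was tested on simulated data with the same spread for every gene. It found 0 of 48 genes changed 1.2-fold, 20 of 48 changed 1.5-fold, 42 of 49 changed 2-fold and 49 of 49 changed 3-fold. The wider spread of the 5S copies between libraries was not simulated, so these rates do not carry over to them. The members, gene lists and the background measure were chosen with earlier results of these data known. Values are given per library for the 8 copies with most reads and each called copy; copies within 5 reads of the limit are named, as are up to 4 called genes a list with the smallest p. Other copies, list genes and host genes were named after their values were seen. Replicate libraries of 1 group differed beyond counting error (pairwise chi-square over its degrees of freedom, 1.70 to 3.97). Groups and replicate numbers came from the labels, and lanes 7 and 8 held replicates 1 to 3 and 4 to 5 of both groups. Some copy sequences are not reported here.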

Additional observations from a re-analysis of the deposited data

Results flagged for a closer look

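In 5 of 74 groups of 5 libraries examined over the 33 tested copies and other levels, 1 library lay far from the other 4; chance alone sets apart about 1 in 20. n-R5s92 had 3.36 CPM in knockdown library 4, with the next value at 6.47 CPM. n-R5s96 had 1.77 CPM in the same library, with the next at 5.57 CPM. n-R5s167 had 26.8 CPM in control library 5, with the next at 7.54 CPM. n-R5s156 had 16.4 CPM there, with the next at 10.3 CPM, and n-R5s210 had 8.93 CPM, with the next at 4.60 CPM. Knockdown library 4 is the library in which the most tested copies (24 of 33) were lowest, and control library 5 the one in which the most (23 of 33) were highest.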

How the results depend on the processing

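The count of copies called higher was 0 and became 1 in lane 7 alone (n-R5s162) and 1 without control library 5 (n-R5s156). The count called lower was 1 (n-R5s207) and became 2 under upper-quartile scaling and library totals (with n-R5s193), 3 with scaling on genes with little background (with n-R5s193 and n-R5s211), 0 under a filter of 5 CPM, which n-R5s207 does not pass, and 0 in lane 8 alone. Leaving out each library in turn gave 0 to 1 higher and 1 to 2 lower, with 2 without control library 4. n-R5s207 ran from -2.02 to -1.25 over the other settings. With the replicate number as a block, 0 copies were higher and 1 lower. Same-numbered libraries correlated at -0.10, -0.21, 0.01, 0.15 and 0.16, and only replicate 5 correlated best with its own number. These values show no pairing by number, but with so few libraries they cannot exclude it. The summed log2 ratio ran from -0.57 (lane 8) to 0.17 (lane 7), beside a spread between libraries of 0.54 (SD of log2 levels). Leaving out libraries gave -0.25 to 0.08.

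Signs of copies near 0 changed with the setting, and the cause was not tested. With no filter, n-R5s56 stood at 0.053, n-R5s62 at 0.028, n-R5s115 at 0.067, n-R5s161 at 0.0035 and n-R5s205 at 0.038. In lane 7 they stood at 0.18, 0.21, 0.21, 0.14 and 0.20, in that order, and n-R5s167 at 0.50. n-R5s115 was 0.011 with DESeq2. n-R5s162 and n-R5s109 fell below 0 under upper-quartile scaling (-0.093 and -0.089), library totals (-0.15 and -0.15), little-background scaling (-0.19 and -0.19), the 5 CPM filter (-0.064 and -0.061) and in lane 8 (-0.60 and -0.25). n-R5s156 was -0.035 with library totals, -0.075 with little-background scaling and -0.11 in lane 8. Leaving out single libraries gave -0.21 to 0.11 for n-R5s56, -0.24 to 0.11 for n-R5s62, -0.20 to 0.12 for n-R5s115, -0.27 to 0.056 for n-R5s161, -0.22 to 0.084 for n-R5s205, -0.11 to 0.28 for n-R5s162, -0.079 to 0.23 for n-R5s109 and -1.01 to 0.41 for n-R5s167, which is positive without control library 5. Depth limits the 25 untested copies, and counts at single copies depend on the unknown treatment of multiply matching reads.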
